A study of Mus musculus with 6 samples.

Results

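The caspases and the apoptosome were followed in splenic monocytes through 8 genes chosen by name: Casp1, Casp2, Casp4, Casp6, Casp8, Casp9, Casp12 and Apaf1. They were 8 of the 55421 genes counted, and all 8 were among the 13849 genes with enough reads for a test. Bulk RNA sequencing compared monocytes of 3 IL-4Rα+/+ mice with those of 3 IL-4Rα-/- mice, with 1 library per mouse, all on a C57BL/6 background. The IL-4Rα-/- mice lack the receptor chain for IL-4 and IL-13 in every cell and not in monocytes alone, and the IL-4Rα+/+ mice were wild-type littermates. No mouse received a treatment according to the labels, and the study's methods place all of its animals between 8 and 16 weeks of age, without an age or sex for each sequenced mouse. Monocytes were enriched from spleen suspensions by removing the other leukocytes with antibodies.

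Caspases are cysteine proteases that cut their targets after aspartate and are made as inactive precursors. Initiator caspases are switched on when large adaptor complexes bring them together: Casp8 at death receptors, Casp9 on the apoptosome, a wheel that Apaf1 builds once cytochrome c leaves the mitochondria, and Casp2 on the PIDDosome. Effector caspases such as Casp6 are then cleaved and take the cell apart. Casp1, Casp4 (mouse caspase-11) and Casp12 belong to the inflammatory branch, in which inflammasomes activate the cytokines IL-1β and IL-18 and open pores of gasdermin D. Monocytes are rich in both branches. The activity of these enzymes is set largely at the protein level, which RNA counts do not measure.

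The 7 caspase genes share the coding stretch around the catalytic cysteine, which is shown because it is what makes each of them a protease gene. The 45 bases of each are written 5′ to 3′ as coding sequence from the GRCm38 genome with GENCODE gene models, and the capitals mark the 15 bases of the active-site motif, whose middle codon encodes the cysteine.
Casp1: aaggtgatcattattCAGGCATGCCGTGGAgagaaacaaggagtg
Casp4: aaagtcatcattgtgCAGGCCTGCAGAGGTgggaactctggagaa
Casp12: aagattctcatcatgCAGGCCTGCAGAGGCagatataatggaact
Casp2: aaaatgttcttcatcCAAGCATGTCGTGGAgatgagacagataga
Casp9: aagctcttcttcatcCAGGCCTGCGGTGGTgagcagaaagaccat
Casp8: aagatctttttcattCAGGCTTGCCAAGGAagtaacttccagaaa
Casp6: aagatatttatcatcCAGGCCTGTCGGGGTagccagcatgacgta

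In 6 of these genes the stretch is split by an intron: it spans chr9:5303744-5304200 in Casp1 (exons 6 and 7), chr9:5324928-5327189 in Casp4 (exons 5 and 6), chr9:5353838-5354547 in Casp12 (exons 7 and 8), chr6:42276755-42279790 in Casp2 (exons 8 and 9), chr4:141807232-141811552 in Casp9 (exons 6 and 7) and chr3:129910681-129912144 in Casp6 (exons 5 and 6). In Casp8 it lies within exon 9, at chr1:58844598-58844642, and all 7 are on the plus strand. Casp4 and Casp12 were alike in 14 of the 15 bases in capitals and in 29 of the 45 bases. Their whole coding sequences were identical at 65.7% of aligned bases, with gaps left out. The highest such value, 70.1%, was between Casp6 and Casp8, whose coding sequences differ in length (828 and 1500 bases). As bases opposite a gap were not counted, these values do not rank how closely the genes are related. Apaf1 is no protease, and the stretch shown for it holds the loop that grips the nucleotide needed to build the wheel, in capitals, from exon 4 at chr10:91077562-91077615 on the minus strand.
Apaf1: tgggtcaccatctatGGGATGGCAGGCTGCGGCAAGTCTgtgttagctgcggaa

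Casp1, Casp4 and Casp12 are neighbours on chromosome 9 of GRCm38, at chr9:5298517-5307265, chr9:5308828-5336783 and chr9:5345430-5373032. The other members are on chromosomes 6 (Casp2, chr6:42264985-42282508), 3 (Casp6, chr3:129901425-129914103), 1 (Casp8, chr1:58795374-58847503), 4 (Casp9, chr4:141793612-141815976) and 10 (Apaf1, chr10:90989311-91082770). Despite the shared motif, no run of 75 bases, the length of a read, in the transcripts of Casp1, Casp2, Casp4, Casp6 or Casp12 was found in those of another gene. Such runs made up 1.95% of Casp8, 0.383% of Casp9 and 0.153% of Apaf1. Exons of Casp9 shared 94 bases with the pancreatic enzyme genes Cela2a and Ctrc on the opposite strand, and the strand setting used for counting is not given in the sources used here. Cela2a stood at 31.7 CPM in IL-4Rα-/- replicate 2 and at no more than 2.11 CPM in the other libraries.

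The libraries held 26807281 to 29033297 reads on genes. Values are given as CPM, read counts put on a common library total with the TMM scaling of edgeR, unless a level per length is named. The targeted gene Il4ra was at 137, 128 and 177 CPM in IL-4Rα+/+ replicates 1, 2 and 3 and at 27.9, 79.4 and 31.8 CPM in IL-4Rα-/- replicates 1, 2 and 3, so the genotypes did not overlap. The monocyte genes Ly6c2, Ccr2, Csf1r and Cx3cr1 were expressed in every library, and none of 10 monocyte markers had an unadjusted p under 0.05. Genes of other cells moved with the genotype: the sum of erythroid markers was 58.6 to 128 CPM in IL-4Rα+/+ and 168 to 424 CPM in IL-4Rα-/- libraries, with 7 of 9 higher at that p, that of eosinophil, basophil and mast cell markers 73.0 to 79.1 and 111 to 179 CPM, with 6 of 8 higher, and that of red pulp macrophage markers 2277 to 2698 and 2987 to 4450 CPM, with 4 of 6 higher. Neutrophil markers summed to 57.1 to 253 and 119 to 629 CPM, with 4 of 9 higher and the neutrophil gene Ly6g at no more than 0.315 CPM, while B and plasma cell (584 to 907 and 704 to 770 CPM), T and NK cell (41.7 to 102 and 38.4 to 90.9 CPM) and dendritic cell markers (168 to 246 and 161 to 204 CPM) overlapped. Their part in the values below was not tested. In bulk samples a change in the number of cells of a type and a change in the RNA per cell cannot be told apart.

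None of the 8 genes differed between the genotypes at the adjusted p threshold of 0.15 that the study used. By the quasi-likelihood test of edgeR, adjusted by Benjamini-Hochberg, 0 of 13849 genes passed it, which is 0% of all genes. This count thus says little about the caspases in particular. Even the targeted gene Il4ra did not pass in edgeR (log2 fold change -1.67, adjusted p = 0.618), while it passed in DESeq2 (adjusted p = 0.0111). An unadjusted p under 0.05 in edgeR was found for 1120 genes (8.09%). Of the 8 genes only Casp2 was among them. With DESeq2, 80 of 14003 genes (0.571%) passed the threshold and again none of the 8, the lowest adjusted p among them being 0.693 for Casp2. The median log2 fold change of IL-4Rα-/- against IL-4Rα+/+ was 0.02 over the 8 genes, 4 of them higher and 4 lower, and 0.01 over all genes tested. None of the 8 genes lay higher in every IL-4Rα-/- library than in every IL-4Rα+/+ library, against 7.63% of all genes, and Casp2 alone lay lower throughout, against 7.87% of all genes.

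**Figure D1:**
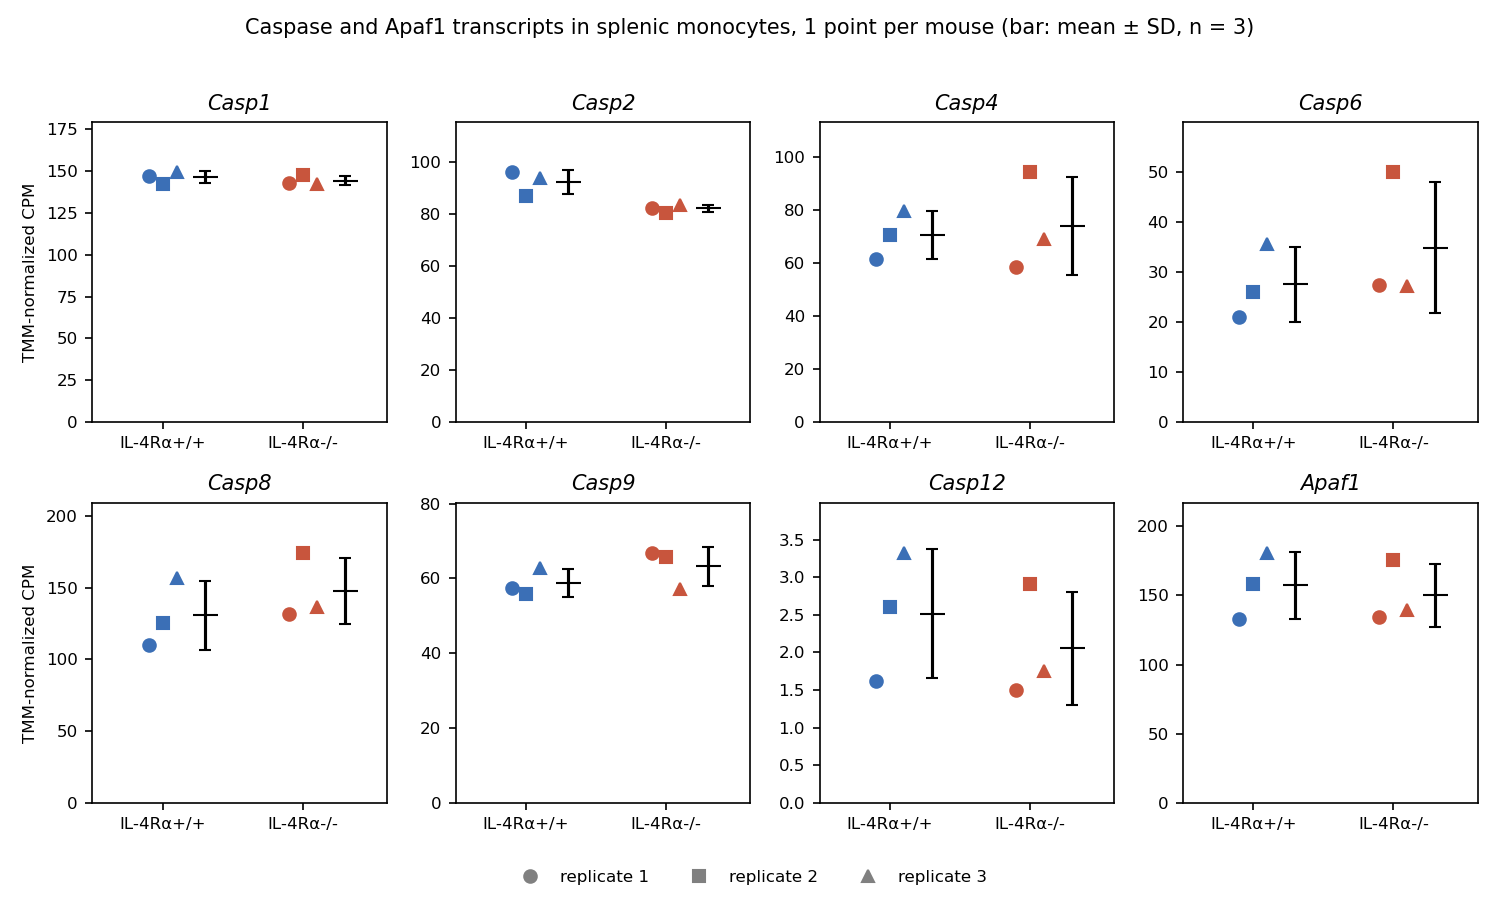
Level of the 8 genes in CPM in each library, 1 panel per gene, with points for the 3 IL-4Rα+/+ and the 3 IL-4Rα-/- mice and the mean ± SD of each genotype. The genotypes overlap in every panel but that of Casp2, where the IL-4Rα-/- libraries lie between 80.5 and 83.5 CPM and the IL-4Rα+/+ libraries between 87.0 and 96.1 CPM.

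Casp8 starts the death receptor route and, together with Cflar, holds necroptosis in check. It was at 110, 125 and 157 CPM in IL-4Rα+/+ replicates 1, 2 and 3 and at 132, 174 and 137 CPM in IL-4Rα-/- replicates 1, 2 and 3. The lowest library was wild-type and the highest was a knockout, but the ranges crossed. The means were 131 ± 24.0 CPM (SD, n = 3) and 148 ± 23.2 CPM (SD, n = 3), a log2 fold change of 0.17 (SE 0.17, edgeR adjusted p = 0.756). The 95% interval of that change ran from -0.22 to 0.57. It was 0.04 without IL-4Rα-/- replicate 2, 0.06 without IL-4Rα+/+ replicate 1 and 0.33 without IL-4Rα+/+ replicate 3.

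Casp9 is the initiator that docks on the apoptosome. IL-4Rα+/+ replicates 1, 2 and 3 had 57.4, 55.7 and 62.9 CPM, and IL-4Rα-/- replicates 1, 2 and 3 had 66.8, 65.7 and 57.2 CPM. A pair of knockout libraries lay above all wild-type libraries, and the remaining one fell among them. With means of 58.7 ± 3.73 and 63.2 ± 5.29 CPM (SD, n = 3 each), Casp9 had a log2 fold change of 0.11 (SE 0.09, 95% interval -0.11 to 0.32, edgeR adjusted p = 0.730).

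Apaf1, the scaffold of the apoptosome and sensor of cytochrome c, was read at 133, 159 and 181 CPM in the IL-4Rα+/+ replicates 1, 2 and 3 and at 134, 176 and 140 CPM in the IL-4Rα-/- replicates 1, 2 and 3. IL-4Rα+/+ replicate 1 and IL-4Rα-/- replicate 1 were the lowest of their genotypes, and the knockout values all fell within the wild-type range. Its means of 157 ± 24.0 and 150 ± 22.6 CPM (SD, n = 3 each) gave a log2 fold change of -0.07 (SE 0.15, 95% interval -0.43 to 0.29, edgeR adjusted p = 0.886). The sign rested on 1 mouse: without IL-4Rα+/+ replicate 3 the log2 fold change was 0.04.

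Casp2, the initiator of the PIDDosome and a sensor of extra centrosomes and DNA damage, had the clearest order of the 8 genes. Counts of 2735, 2405 and 2484 in IL-4Rα+/+ replicates 1, 2 and 3 became 96.1, 87.0 and 93.8 CPM, and counts of 2303, 2298 and 2468 in IL-4Rα-/- replicates 1, 2 and 3 became 82.2, 80.5 and 83.5 CPM. All 3 knockout libraries were below all 3 wild-type libraries. The means were 92.3 ± 4.72 and 82.1 ± 1.498 CPM (SD, n = 3 each), so that the knockout level was 0.889 of the wild-type level. The log2 fold change of -0.17 (SE 0.07) had a 95% interval just below 0, from -0.34 to -0.0038. Its p of 0.0463 in edgeR, a model fitted across all genes, was not adjusted, and the adjusted p was 0.618, which did not pass. DESeq2 gave an unadjusted p of 0.0768, and 5 of the 6 edgeR fits that left out 1 mouse gave an unadjusted p between 0.0903 and 0.134, the exception being the fit without IL-4Rα+/+ replicate 2 (0.0327). The direction was lower in all 15 alternative fits.

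Casp6, an effector that cleaves nuclear lamins, varied most among the well expressed members. It was at 20.9, 25.9 and 35.6 CPM in IL-4Rα+/+ replicates 1, 2 and 3 and at 27.4, 49.95 and 27.1 CPM in IL-4Rα-/- replicates 1, 2 and 3. IL-4Rα-/- replicate 2 stood above every other library, and the remaining knockout libraries lay inside the wild-type range. Means of 27.5 ± 7.50 and 34.8 ± 13.1 CPM (SD, n = 3 each) made the highest log2 fold change of the 8 genes, 0.34 (SE 0.30, 95% interval -0.37 to 1.05, edgeR adjusted p = 0.739). Without IL-4Rα-/- replicate 2 it was -0.01.

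Casp1, the protease of inflammasomes that matures IL-1β and IL-18, was the steadiest of the group. It had 147, 143 and 149 CPM in IL-4Rα+/+ replicates 1, 2 and 3 and 143, 147 and 143 CPM in IL-4Rα-/- replicates 1, 2 and 3. All 6 libraries lay within a 1.05-fold range. The means of 146 ± 3.51 and 144 ± 2.69 CPM (SD, n = 3 each) differed by a log2 fold change of -0.02 (SE 0.06, edgeR adjusted p = 0.927). The 95% interval from -0.17 to 0.13 bounds the difference on this scale. In the fit with the trend over exon length removed, the log2 fold change was -0.11 (SE 0.07).

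Casp4, which senses bacterial lipopolysaccharide in the cytosol and cleaves gasdermin D, was at 61.6, 70.6 and 79.6 CPM in IL-4Rα+/+ replicates 1, 2 and 3 and at 58.5, 94.3 and 69.0 CPM in IL-4Rα-/- replicates 1, 2 and 3. The lowest and the highest library were both knockouts. Means of 70.6 ± 8.99 and 73.9 ± 18.4 CPM (SD, n = 3 each) gave a log2 fold change of 0.07 (SE 0.19, 95% interval -0.38 to 0.52, edgeR adjusted p = 0.916). That sign turned without IL-4Rα-/- replicate 2 (-0.15) and without IL-4Rα+/+ replicate 1 (-0.02).

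Casp12, a relative of Casp4 on the same stretch of chromosome 9, was close to the lower end of what could be measured. It had 46, 72 and 88 reads in IL-4Rα+/+ replicates 1, 2 and 3 and 42, 83 and 52 reads in IL-4Rα-/- replicates 1, 2 and 3. In CPM these were 1.62, 2.605 and 3.32 against 1.499, 2.91 and 1.76, with the genotypes overlapping. Counting error alone gave a coefficient of variation of 12.5% at this depth, and the libraries varied by 34.1% in IL-4Rα+/+ and 36.5% in IL-4Rα-/- mice. With means of 2.51 ± 0.857 and 2.05 ± 0.749 CPM (SD, n = 3 each), the log2 fold change was -0.29 (SE 0.38, 95% interval -1.19 to 0.61, edgeR adjusted p = 0.810). Leaving out 1 mouse moved it between -0.62, without IL-4Rα-/- replicate 2, and -0.04, without IL-4Rα+/+ replicate 3.

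Levels of different genes can be set side by side only per length, as counts per kilobase of exon with the same sum in each library, called TPM here. On this scale Casp1 stood first at 327 ± 7.65 TPM (SD over the 6 libraries), higher than 96.5% of the genes tested, whose median was 17.2 TPM. Casp8 followed at 162 ± 23.1 TPM, then Casp4 at 65.5 ± 10.4, Apaf1 at 57.3 ± 7.22, Casp2 at 41.7 ± 3.62, Casp9 at 39.5 ± 2.41, Casp6 at 18.7 ± 5.65 and Casp12 at 2.00 ± 0.649 TPM. The libraries of neighbours in this order did not overlap, except for Casp4 (53.1 to 81.6 TPM) with Apaf1 (up to 67.3 TPM) and Casp2 (36.6 to 46.5 TPM) with Casp9 (37.0 to 43.3 TPM). The TPM of Casp1 was 328.9 to 336 in IL-4Rα+/+ and 316 to 327.2 in IL-4Rα-/- libraries, a narrow gap, whereas its CPM after TMM scaling overlapped. The share of all genes without overlap in TPM was not counted, so this gap cannot be weighed. Per base of transcript, the inflammatory branch thus held both the highest and the lowest member. When the longest transcript replaced the union of exons, Casp2 (64.0 TPM) passed Apaf1 (60.4 TPM), Casp4 rose to 98.2 TPM, and Casp1 (251 TPM) and Casp8 (139 TPM) still led.

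**Figure D2:**
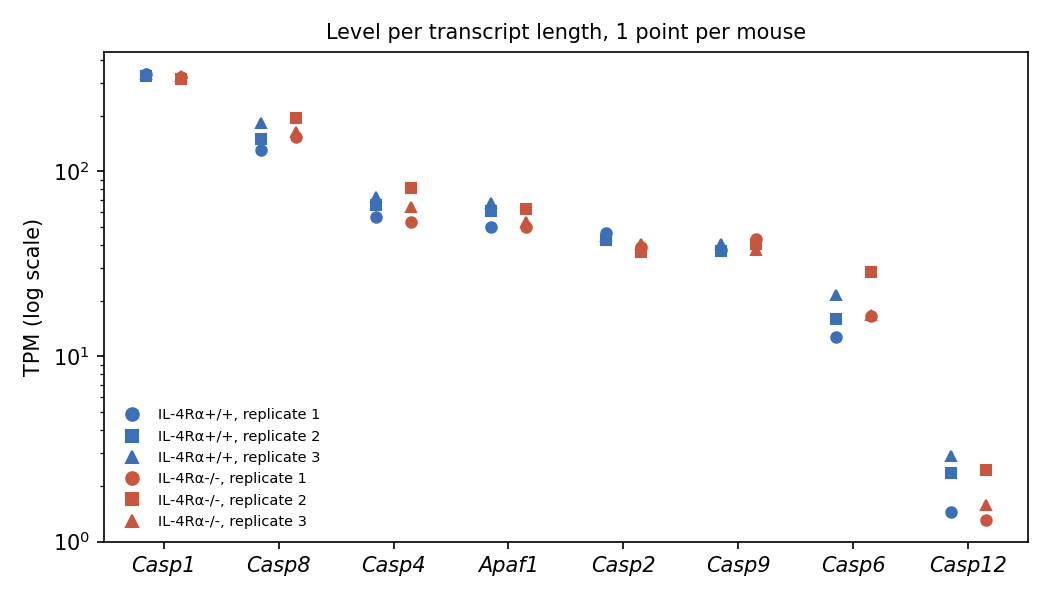
Level of each gene per exon length in TPM on a log axis, with a point for each of the 6 libraries in the colour of its genotype, ordered by the mean. Casp1 lies between 316 and 336 TPM, Casp12 between 1.31 and 2.91 TPM, and the points of both genotypes mix in every gene but Casp2 and Casp1. For Casp1 the nearest values of the genotypes are 327.2 TPM (IL-4Rα-/-) and 328.9 TPM (IL-4Rα+/+).

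The 8 genes differed widely in how much they varied between mice of a genotype. The SD of log2 CPM within a genotype was 0.03 for Casp1, lower than in all but 0.780% of the genes tested, and 0.06 for Casp2, at the percentile 5.60. Casp9 (0.11) was also under the median of 0.18 over all genes tested, while Apaf1 (0.22), Casp8 (0.24), Casp4 (0.28), Casp12 (0.42) and Casp6 (0.44) were over it. For Casp6 the highest library was 2.39 times the lowest, for Casp12 2.22 times and for Casp4 1.61 times. The order of the mice was often shared: IL-4Rα+/+ replicate 3 and IL-4Rα-/- replicate 2 were each the highest of their genotype in 6 of the 8 genes. These were Casp1, whose libraries lay within a 1.05-fold range, Casp4, Casp6, Casp8, Casp12 and Apaf1. The same held for 24.9% of all genes tested. This pair was picked after the values of the 8 genes were seen, which favours a higher count among them, so the count cannot be weighed against that share.

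Those libraries also had the highest ratio of Ccr2 to Ace transcripts, which does not measure cell numbers. Ccr2 marks classical and Ace marks nonclassical monocytes, and the log2 ratio of Ccr2 to Ace counts was -2.87, -1.02 and 0.62 in IL-4Rα+/+ replicates 1, 2 and 3 and -1.08, 1.5001 and -0.71 in IL-4Rα-/- replicates 1, 2 and 3. The ratio was chosen after the values of the 8 genes were seen, which favours a high r among them. The p-values of these relations, adjusted or not, do not account for that choice and describe the pattern only. Over the 6 libraries, log2 CPM of Casp8 had a Pearson r of 0.99 with it (exact permutation p = 0.00278, adjusted over the 8 genes 0.0222), with a Spearman rho of 0.94 (exact permutation p = 0.0167, adjusted 0.0889). Casp6 had an r of 0.97 (exact permutation p = 0.00556, adjusted 0.0222) and a rho of 0.83 (exact permutation p = 0.0583, adjusted 0.0933). Without the libraries farthest from the median ratio, IL-4Rα+/+ replicate 1 and IL-4Rα-/- replicate 2, only 4 libraries were left. Over these r was 0.96 for Casp8 and 0.97 for Casp6. It was also 0.97 for Casp1 and 0.88 for Casp2, so this step does not set Casp8 and Casp6 apart.

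Casp4 (r = 0.88, exact permutation p = 0.0278, rho = 0.89, p = 0.0333) and Apaf1 (r = 0.84, exact permutation p = 0.0250, rho = 0.89, p = 0.0333) came next, each with an adjusted p of 0.0556 for r and 0.0889 for rho. Without the farthest libraries their r was 0.81 and 0.82. Casp12 had an r of 0.75 (exact permutation p = 0.0889, adjusted 0.142) and a rho of 0.83 (exact permutation p = 0.0583, adjusted 0.0933), and an r of 0.74 without those libraries. The remaining genes showed no such relation over all libraries: r was 0.56 for Casp9 (exact permutation p = 0.265, adjusted 0.354), 0.36 for Casp1 (exact permutation p = 0.449) and -0.48 for Casp2 (exact permutation p = 0.332, adjusted 0.379), and rho was 0.14, 0.37 and -0.49. Without the farthest libraries r was 0.20 for Casp9 and, over only 4 libraries, turned to 0.97 for Casp1 and 0.88 for Casp2. An r over 0.8 was found in 4 of the 8 genes and in 12.8% of all genes tested. As the ratio was chosen with the 8 genes in view, that count cannot be weighed against this share. The 3 libraries per genotype were too few to give r within a genotype.

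**Figure D3:**
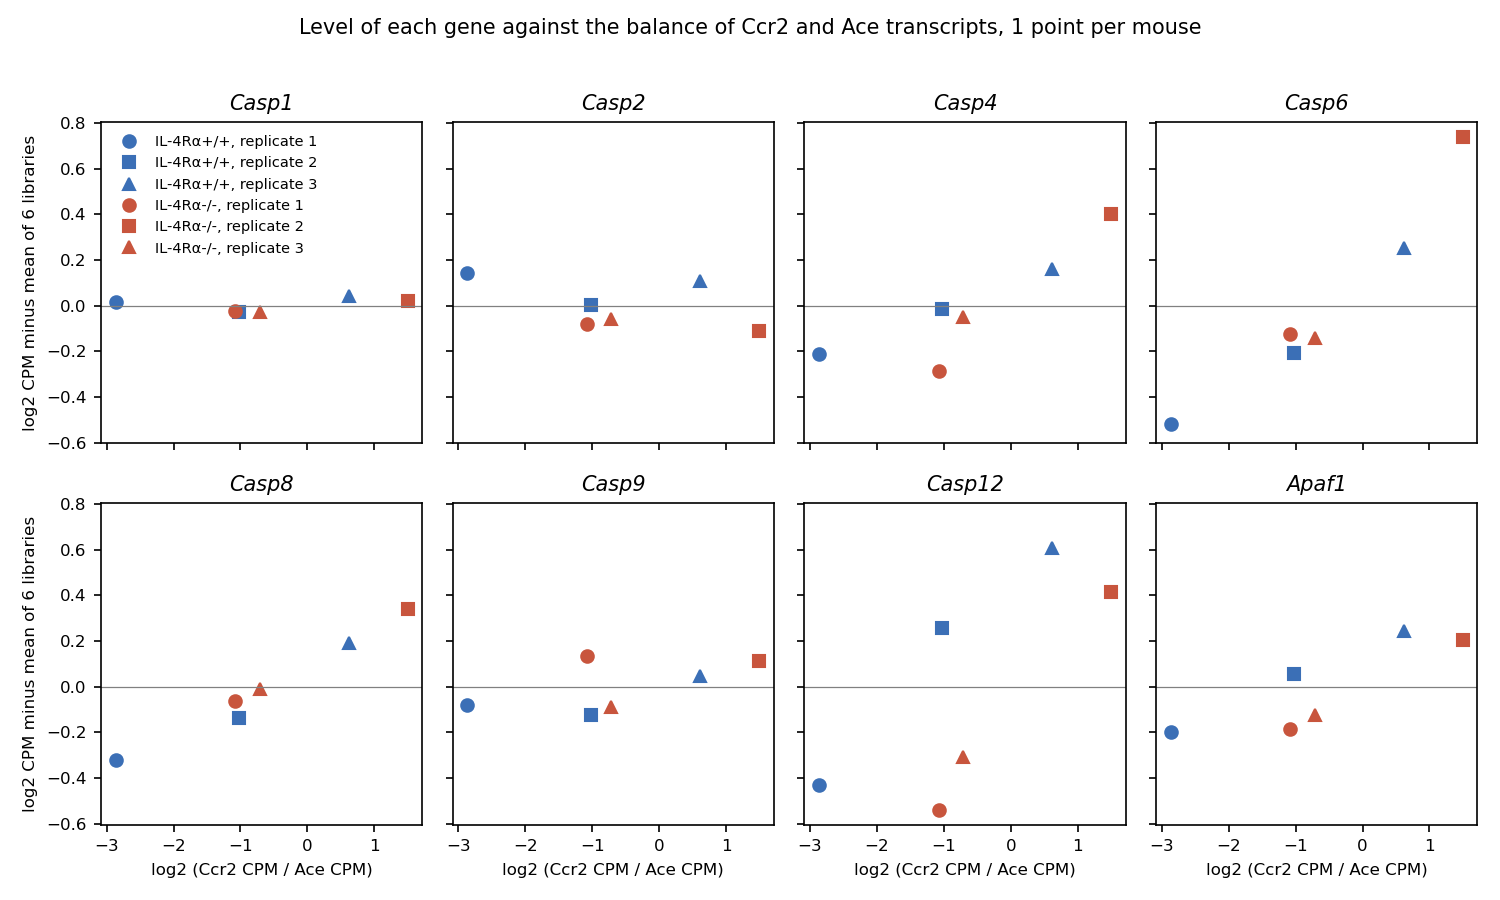
Log2 CPM of each of the 8 genes, as the difference from its mean over the 6 libraries, against the log2 ratio of Ccr2 to Ace, with a point for each library, its colour giving the genotype and its shape the replicate. IL-4Rα-/- replicate 2 and IL-4Rα+/+ replicate 3, at the right, are the highest points of Casp4, Casp6 and Casp8, IL-4Rα+/+ replicate 1, at the left, is the lowest of Casp6 and Casp8, and the points of Casp1 stay near 0.

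With the Ccr2 to Ace ratio as a covariate in edgeR, a fit added after the data were seen, the log2 fold change of Casp8 was 0.03 (SE 0.06) and that of Casp6 0.05. Casp2 was at -0.16 with an unadjusted p of 0.0592. As the ratio had an r of 0.99 with Casp8 and 0.97 with Casp6, their small estimates here followed largely from its choice and are no separate result. Apaf1 was at -0.20 (SE 0.06, unadjusted p = 0.0132 in edgeR) and Casp12 at -0.61 (SE 0.22, unadjusted p = 0.0329 in edgeR), with edgeR adjusted p of 0.396 and 0.434. The ratio also had an r of 0.84 with Apaf1 and 0.75 with Casp12, and these p-values do not account for its choice. No gene of the whole table passed the threshold in this fit. An unadjusted p under 0.05 was found for 1524 genes (11.0%), with 2 of the 8 among them. When IL-4Rα+/+ replicate 3 and IL-4Rα-/- replicate 2 were left out together, Casp6 and Casp8 lay higher in both remaining knockout libraries than in both wild-type libraries and Casp2 lay lower, against 46.2% of all genes that then did not overlap. Their log2 fold changes were 0.22, 0.19 and -0.14. The only gene that passed the adjusted threshold in that fit was the targeted gene, Il4ra, at -2.15 (SE 0.10, edgeR adjusted p = 0.0530).

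**Figure D4:**
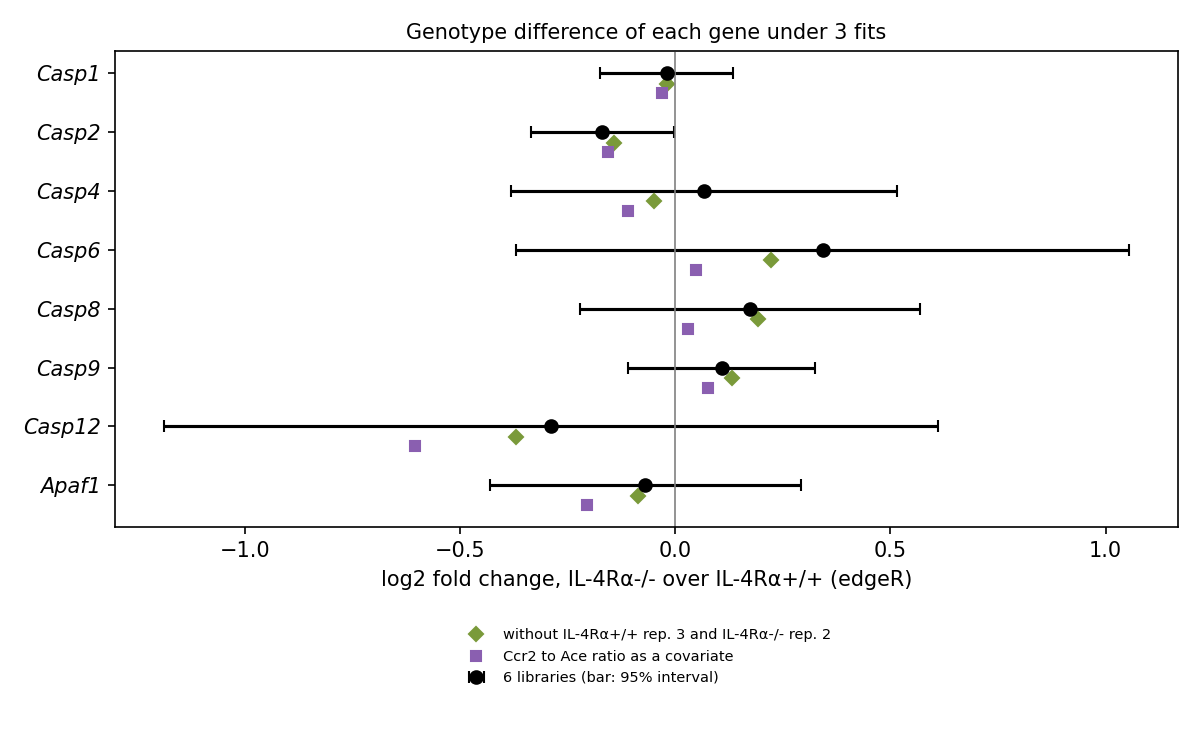
Log2 fold change of IL-4Rα-/- against IL-4Rα+/+ for each of the 8 genes in 3 fits of edgeR: black points with bars for the estimate from all 6 libraries and its 95% interval, green diamonds for the fit without IL-4Rα+/+ replicate 3 and IL-4Rα-/- replicate 2, and purple squares for the fit with the Ccr2 to Ace ratio. The intervals of 7 genes include 0 and that of Casp2 ends at -0.0038, and the 3 estimates lie close together for Casp1, Casp2 and Casp9.

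The balance of a caspase with its regulator within a library does not depend on how libraries are scaled, so 4 ratios of counts were compared with an exact two-sided permutation test, which has 20 labelings and a smallest p of 0.10. Cflar encodes c-FLIP, which pairs with Casp8 and restrains it. The ratio of Casp8 to Cflar counts was 0.709, 0.906 and 1.16 in IL-4Rα+/+ replicates 1, 2 and 3 and 1.01, 1.48 and 1.08 in IL-4Rα-/- replicates 1, 2 and 3. These counts were not set per length, so a ratio of 1 has no meaning of its own. The genotypes overlapped, and the mean log2 ratio was -0.14 ± 0.36 and 0.23 ± 0.29 (SD, n = 3 each, exact p = 0.3, adjusted over the 4 ratios 0.4). The difference of 0.37 between these means was 0.19 without IL-4Rα+/+ replicate 1 and 0.20 without IL-4Rα-/- replicate 2. Cflar itself was at 155, 138 and 135 CPM in IL-4Rα+/+ and 130, 118 and 126 CPM in IL-4Rα-/- replicates 1, 2 and 3, without overlap, at a log2 fold change of -0.19 (SE 0.09, unadjusted p = 0.0587 and adjusted p = 0.618 in edgeR).

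Xiap encodes an inhibitor that binds Casp9 and the effector caspases. The ratio of Casp9 to Xiap counts was 0.236, 0.217 and 0.298 in IL-4Rα+/+ replicates 1, 2 and 3 and 0.317, 0.353 and 0.284 in IL-4Rα-/- replicates 1, 2 and 3. A pair of knockout libraries exceeded every wild-type library, and IL-4Rα-/- replicate 3 fell below IL-4Rα+/+ replicate 3. The log2 ratio averaged -2.01 ± 0.24 and -1.66 ± 0.16 (SD, n = 3 each, exact p = 0.2, adjusted 0.4), and their difference ran from 0.26 to 0.48 over the sets of 5 mice.

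The ratio of Apaf1 to Casp9, scaffold to protease, was 2.31, 2.85 and 2.87 in IL-4Rα+/+ replicates 1, 2 and 3 and 2.01, 2.67 and 2.45 in IL-4Rα-/- replicates 1, 2 and 3, with overlap (log2 ratio 1.41 ± 0.18 and 1.24 ± 0.21, SD, n = 3 each, exact p = 0.3, adjusted 0.4). That of Casp1 to Casp4 was 2.39, 2.02 and 1.88 against 2.44, 1.56 and 2.07 (log2 ratio 1.06 ± 0.18 and 0.99 ± 0.33, SD, n = 3 each, exact p = 1, adjusted 1). The highest and the lowest Casp1 to Casp4 ratio were both in knockout libraries.

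**Figure D5:**
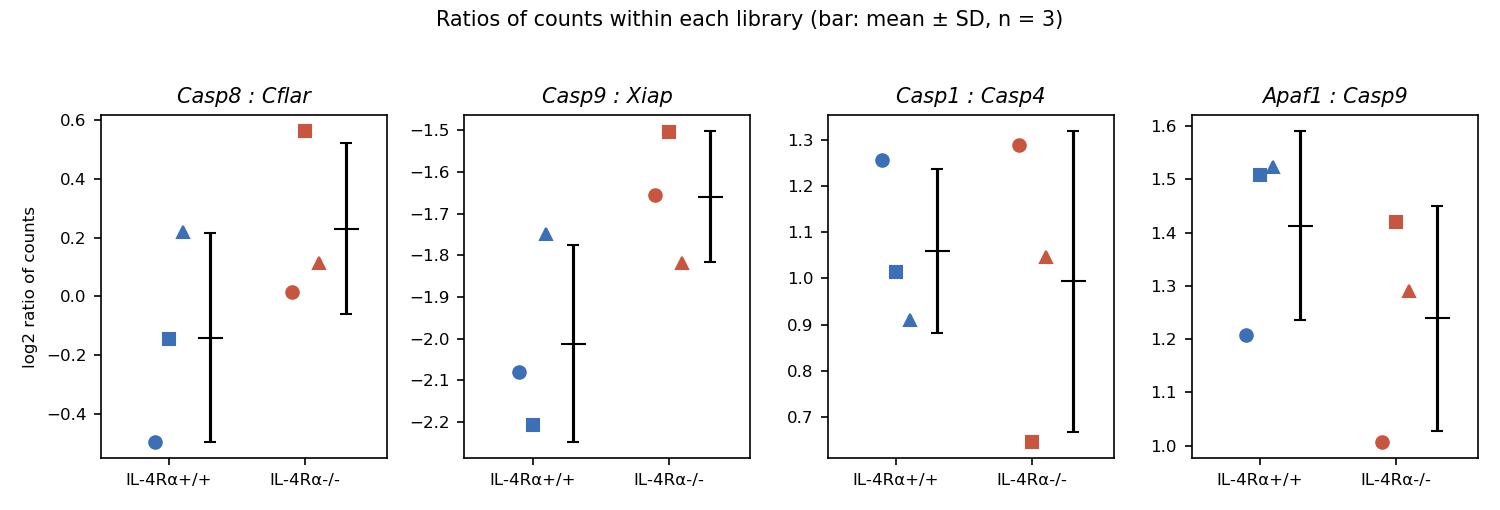
Log2 ratio of read counts of Casp8 to Cflar, Casp9 to Xiap, Casp1 to Casp4 and Apaf1 to Casp9 in each library, 1 panel per ratio, with points for the mice (circle, square and triangle for replicates 1, 2 and 3), the mean ± SD of each genotype and an axis range of its own in each panel. The genotypes overlap in all 4 panels, and the means differ by 0.37 on the log2 scale for Casp8 to Cflar and by 0.35 for Casp9 to Xiap.

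The genes around these 8 were taken from 6 lists of 46 partners, 45 of which had enough reads for a test. Casp14, a skin caspase, had 0 reads in every library, which allows up to 3 reads per library for counting error alone. None of the 45 passed the adjusted threshold, 21 were higher and 24 lower in IL-4Rα-/- mice, and their median log2 fold change was -0.01. An unadjusted p under 0.05 was found for 6 of them, or 13.3% beside the 8.09% of all genes tested, 2 higher and 4 lower, each with an edgeR adjusted p of 0.618. That count moved between 1 and 10 when 1 mouse was left out, and the whole table moved with it: it was 10 without IL-4Rα+/+ replicate 3, where 12.1% of all genes tested had such a p, and 1 without IL-4Rα+/+ replicate 2, where 4.44% did.

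Of the 10 apoptosome and mitochondrial partners 5 were higher and 5 lower (median -0.06). Xiap had -0.25 (SE 0.10, unadjusted p = 0.0396 in edgeR), with 243, 257 and 211 CPM in IL-4Rα+/+ against 210, 186 and 201 CPM in IL-4Rα-/- replicates 1, 2 and 3, and the largest difference was in Htra2, a mitochondrial protease that relieves inhibition of caspases, at -0.35 (SE 0.29). In the PIDDosome list, 1 gene was higher and Pidd1, the scaffold that recruits Casp2, had the largest change at -0.15 (SE 0.15).

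The caspase-8 complex held 7 genes, 5 of them higher (median 0.06), and the largest difference was in one that was lower, Casp8ap2, which encodes a protein that binds Casp8 (-0.25, SE 0.09, unadjusted p = 0.0275 in edgeR). Its libraries ranged from 35.7 to 40.8 CPM in IL-4Rα+/+ and from 30.4 to 34.2 CPM in IL-4Rα-/- mice, without overlap. Among 12 inflammasome adaptors and substrates, 5 higher and 7 lower (median -0.09), Il18, the cytokine that Casp1 matures, had 41.7, 51.1 and 49.2 CPM in IL-4Rα+/+ and 71.3, 66.2 and 57.4 CPM in IL-4Rα-/- replicates 1, 2 and 3. All knockout libraries were above all wild-type libraries at a log2 fold change of 0.46 (SE 0.12, unadjusted p = 0.00612, adjusted p = 0.618 in edgeR, and 0.203 in DESeq2). The sensor gene Nlrp1b, which has close copies in the mouse genome that could share reads, had -0.52 (SE 0.19, unadjusted p = 0.0292 in edgeR).

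Pycard, which encodes the adaptor ASC that links sensors to Casp1, had the largest difference of all 45 partners in either direction. It was at 45.5, 80.6 and 93.1 CPM in IL-4Rα+/+ and at 35.4, 59.4 and 35.9 CPM in IL-4Rα-/- replicates 1, 2 and 3, a log2 fold change of -0.75 (SE 0.31, unadjusted p = 0.0507 in edgeR). The genotypes overlapped in IL-4Rα+/+ replicate 1. Within each genotype the highest Pycard library was again IL-4Rα+/+ replicate 3 or IL-4Rα-/- replicate 2, the libraries with the highest Ccr2 to Ace ratio.

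Of 12 genes whose products effector caspases cut or activate, 5 were higher and 7 lower (median -0.01). Lmnb1, a lamin of the nuclear envelope, had 67.0, 49.2 and 71.3 CPM in IL-4Rα+/+ and 73.4, 89.7 and 80.9 CPM in IL-4Rα-/- replicates 1, 2 and 3, a log2 fold change of 0.38 (SE 0.15, unadjusted p = 0.0442 in edgeR). Rock1, the kinase behind membrane blebbing, was at 171 to 174 CPM in IL-4Rα+/+ and 155 CPM in each IL-4Rα-/- library (-0.15, SE 0.06, unadjusted p = 0.0423 in edgeR). Lmna, a lamin that Casp6 cleaves, had the largest difference of that list, 0.58 (SE 0.52), and ranged from 10.1 to 44.7 CPM within the wild-type mice alone.

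The genes whose log2 CPM was most like that of a member over the 6 libraries were Ddx23 for Casp1 (Pearson r = 0.995), Snord49b for Casp2 (r = 0.982), Sf3b4 for Casp4 (r = 0.994), Rabl6 for Casp6 (r = 0.998), Aprt for Casp8 (r = 0.998), Samm50 for Casp9 (r = 0.993), Pik3r4 for Casp12 (r = 0.989) and Tbrg4 for Apaf1 (r = 0.996). Next in order came Slx4 and Zfp58 for Casp1, Cnot10 and Sptbn5 for Casp2, Vps53 and Slc12a9 for Casp4, Ppp1r3d and Dbi for Casp6, Gm2415 and Smn1 for Casp8, AU040320 and Hadha for Casp9, Orc4 and Sssca1 for Casp12 and Sec23ip and Sssca1 for Apaf1. With 6 libraries such values are common: 932 tested genes had an r over 0.9 with Casp6, 930 with Casp8, 405 with Casp4, 290 with Apaf1, 200 with Casp12, 181 with Casp9, 121 with Casp2 and 109 with Casp1. The genes that followed the Ccr2 to Ace ratio most closely, Casp6 and Casp8, thus had the most genes of like pattern.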

How the data were processed

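Splenic monocyte RNA of 6 mice was sequenced from poly(A), directional libraries as single 75 bp reads. The authors aligned reads to GRCm38 with STAR 2.6.1a per the labels and deposited whole-number read counts per gene. STAR's lines for reads not assigned to a gene were left out. Unassigned reads outside genes made up 8.87% to 11.7% of a library and ambiguous reads 1.39% to 1.52%. Samples were grouped by genotype.

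Genes were kept by filterByExpr of edgeR 4.0.16 (minimum count 10, R 4.3.3), TMM-scaled and tested by its quasi-likelihood test, with p-values of 13849 genes adjusted by Benjamini-Hochberg, at the study's threshold of 0.15. DESeq2 1.42.0 was an alternative. The other alternatives changed the normalization, the filter, the block, sex (Xist) and the length trend, or left out mice. The scripts were tested on simulated data. Counting error only is covered by the depth of each library. Whether each library is a separate mouse rests on the labels. The p-values of edgeR and DESeq2 set a difference against variation between libraries, estimated with information shared across genes. The exact p-values come from rearranging the libraries.

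Levels per length used exon unions of GENCODE M21, in which 55240 of 55421 identifiers were found. The authors used a slightly later GENCODE release. Sequences are reference sequences, with the motif found in translated coding sequence, 1 match per gene.

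Members and lists were chosen with earlier results of these data known. Named were all members, Il4ra, partners with an unadjusted p under 0.05 or the largest fold change of their list, partners in the ratios, and the 3 genes most like each member. The results of 1 of the partner lists are not reported here gene by gene.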

Additional observations from a re-analysis of the deposited data

How the results depend on the processing

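None of the 8 genes passed the adjusted threshold in any of the 15 alternative fits. Casp1, Casp2 and Casp12 were lower and Casp8 and Casp9 higher in all 15, with the adjusted p of Casp2 between 0.441 and 0.901 and its log2 fold change between -0.21 and -0.14. Casp4 turned to -0.02 without IL-4Rα+/+ replicate 1, -0.15 without IL-4Rα-/- replicate 2, -0.05 without IL-4Rα+/+ replicate 3 and IL-4Rα-/- replicate 2, and -0.11 with the Ccr2 to Ace ratio as a covariate, both alternatives chosen after seeing the data. Casp6 turned to -0.0095 without IL-4Rα-/- replicate 2 and Apaf1 to 0.0432 without IL-4Rα+/+ replicate 3. Leaving out 1 mouse moved Casp8 between 0.04 and 0.33, Casp9 between 0.06 and 0.18, Casp12 between -0.62 and -0.04, Casp4 between -0.15 and 0.21, Casp6 between -0.01 and 0.58, Apaf1 between -0.20 and 0.04, and the log2 ratio of Casp1 to Casp4 between -0.21 and 0.11, against -0.07 in all libraries (0.03 without IL-4Rα+/+ replicate 1, 0.11 without IL-4Rα-/- replicate 2). The number of genes called was 80 with DESeq2 and 1 without IL-4Rα+/+ replicate 3 and IL-4Rα-/- replicate 2, against 0. Members without overlap numbered 1 to 3 when a mouse was left out (3 without IL-4Rα+/+ replicate 3, by Casp6 and Casp8, beside 37.3% of all genes, and 2 without IL-4Rα-/- replicate 3, by Casp9, beside 26.1%) and 3 without IL-4Rα+/+ replicate 3 and IL-4Rα-/- replicate 2, beside 46.2%. Partners with an unadjusted p under 0.05 numbered 1 to 10 when a mouse was left out, beside 4.44% to 12.1% of all genes. With the longest transcript Casp1 stood at 251, Casp2 at 64.0 and Casp4 at 98.2 TPM. The cause was not tested.

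The correlation of deviations of same-numbered libraries was 0.26, -0.30 and -0.39, so these libraries were not alike throughout. Such values cannot show whether the replicate number stands for a pairing of the mice. When that number was used as a block, 0 genes were called, 765 against 1120 had an unadjusted p under 0.05, 3 partners against 6 did, and Casp2 had 0.0968.

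The 3 mice per genotype limit every comparison: an exact test cannot go below 0.10, and the 95% intervals leave log2 changes of up to 1.05 for Casp6 and -1.19 for Casp12 possible. Casp12 is also limited by depth, with 42 to 88 reads per library.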

Other observations

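Xist stood at 553, 3.73 and 0.0378 CPM in IL-4Rα+/+ replicates 1, 2 and 3 and at 0.0357, 0.140 and 457 CPM in IL-4Rα-/- replicates 1, 2 and 3, and the Y-linked gene Ddx3y at 0, 149 and 136 CPM and at 131, 113 and 0.102 CPM, so each genotype held libraries of both patterns. With Xist as a covariate in edgeR, the log2 fold change of Casp2 was -0.16 (unadjusted p = 0.0699), that of Casp6 0.30, of Casp8 0.16 and of Casp9 0.09. The share of reads outside annotated genes was 10.2% to 11.7% in IL-4Rα+/+ and 8.87% to 9.68% in IL-4Rα-/- libraries, without overlap. Markers of pancreatic acinar cells summed to 0.113 to 31.1 CPM in IL-4Rα+/+ and to 0.135 to 267 CPM in IL-4Rα-/- libraries, with the highest sum in IL-4Rα-/- replicate 2, the library that also had the highest Casp4, Casp6 and Casp8.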
